A study of Zea mays with 4 samples.

Results

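The 200 most expressed shoot genes of maize (Zea mays) in which no pseudouridine (Ψ) site was listed were examined. They were taken from a table of 44303 genes by ranking on the mean of the 2 deposited shoot values, in TPM (reads per length of gene, scaled to the same total in each column), and by leaving out every gene with a listed site between its start and end on its own strand. The genes were thus selected on their measured level and on the absence of a site, which are given as description, without a test. At or above the lowest of them stood 249 genes in all, of which the other 49 held a listed site and served as the comparison.

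The samples were shoots of the inbred line B73, all without treatment of the plants or mutation, and polyadenylated RNA was sequenced by bisulfite-induced deletion sequencing (BID-seq). The labels list 4 libraries, namely 2 treated with bisulfite and 2 inputs without it, numbered 1 and 2 within each kind. The expression table has 1 shoot column for each number, and its headings do not tell input from treated libraries. The authors describe capturing mRNA for each biological replicate. Neither they nor the labels tell whether the numbers stand for separate plants, so the spread between the columns may be partly technical.

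Ψ is an isomer of uridine that pseudouridine synthases make in RNA after transcription. It is abundant in ribosomal and transfer RNA and occurs at lower density in mRNA. In BID-seq, bisulfite binds Ψ and reverse transcriptase then skips the base, so that a modified position shows up as a deletion in treated reads. A gene without a listed site is one in which no position met the criteria of the authors, which is not a measurement of zero Ψ. Coverage at unlisted positions was not analysed here.

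The list held 388 sites, of which 368 lay inside a gene of the expression table on the same strand and 20 lay in none. They fell in 342 genes. None of the 200 site-free genes had a listed site within 500 bases on either strand, and none carried the RefSeq symbol given as the gene of a listed site.

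The site-free set had a median level of 682 TPM, with quartiles of 538 and 876 TPM and a range from 457 to 3577 TPM. The 49 site-holding genes had a median of 702 TPM, with quartiles of 548 and 939 TPM and a range from 460 to 2557 TPM. The 2 sets therefore covered nearly the same range of level. The site-free genes made up 15.4% of all TPM in the replicate 1 column and 15.8% in the replicate 2 column, against 4.11% and 4.22% for the site-holding genes.

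**Figure D1:**
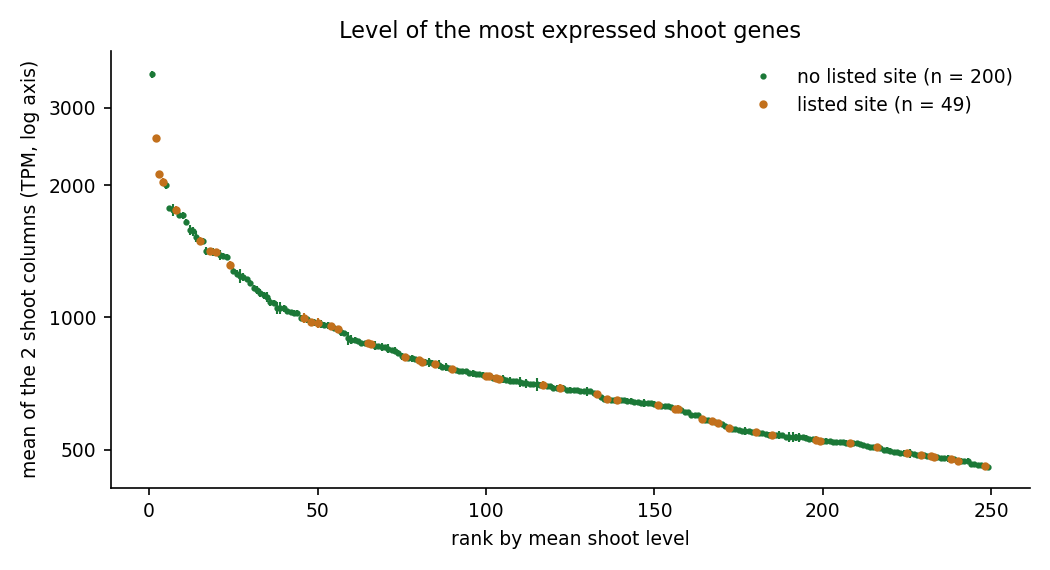
Mean shoot level (TPM, log axis) of the 249 most expressed genes by rank. Points are means of the 2 columns and vertical lines join the 2 values; green points are the 200 genes without a listed site and orange points the 49 with one. The orange points run through the whole range, from 2557 down to 460 TPM.

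The ranks next to the limit were close. The last 3 genes inside it were Zm00001eb058750 (lem1) at 462.2 TPM, Zm00001eb106240 (pdrp1) at 460.3 TPM and Zm00001eb056450 at 457.1 TPM. The first 3 site-free genes outside it were Zm00001eb294420 at 456.8 TPM, Zm00001eb194350 at 454.5 TPM and Zm00001eb127050 at 454.0 TPM. The order at the limit was thus set by differences of less than the gap between the 2 columns for several of these genes, among them Zm00001eb194350, with 443.3 and 465.7 TPM.

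Gene names were read from RefSeq, on the same assembly, by position, since the expression table gives identifiers only. A RefSeq gene overlapped 189 of the 200 site-free genes by at least 0.5 of the joint extent, and all 189 were annotated as protein coding. Among them, 49 had a symbol or synonym that placed them in one of the functional groups below. Only 10 of the 49 site-holding genes were placed, so 49 of the 59 placed genes were site-free. The groups are therefore undercounts in both sets, and a group without a site-holding gene lacks one only among these 10. The other site-free genes are given by identifier only. Of the 249 genes at this level 80.3% were site-free, which is the share to set beside each count of site-free genes in a group, and no group was tested against it.

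The tissue was checked against its markers. Of the photosynthetic genes, both named rbcS (3165 TPM together), PEPC1 (1496 TPM) and NADP-ME (1199 TPM) were among the 249 most expressed genes. So were 1 of 2 genes with a PPDK symbol (1408 TPM together) and 4 of 11 with a CAB or lhcb symbol (5498 TPM together), of which 2 were under 1 TPM. Of genes that mark seeds, the 21 with a zein symbol, for storage proteins, summed to 0.0316 TPM, and the 6 with an oleosin symbol, for oil body proteins, to 1.94 TPM. Markers of root and pollen, late embryogenesis abundant genes and carbonic anhydrase were not among those checked.

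The most abundant gene of the table held no listed site. It was Zm00001eb032690 (grp1, a glycine-rich protein gene, chr1:182556340-182557433, minus strand), with 3506 TPM in the replicate 1 column and 3647 TPM in the replicate 2 column. The next site-free gene was the metallothionein gene Zm00001eb164610 (mtl1, chr4:1587692-1588505, minus strand), with 1963 and 2046 TPM. Metallothioneins are small cysteine-rich proteins that bind metal ions. Ranks 2 to 4 between them belonged to site-holding genes, namely Zm00001eb043260 at 2557 TPM, Zm00001eb407630 and Zm00001eb217560 (RAB15).

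The remaining 8 of the top 10 site-free genes lay between 1527 and 1775 TPM. They were Zm00001eb171230, psa6 (Zm00001eb299990), CAB1 (Zm00001eb320890), Zm00001eb273380, Zm00001eb282040, Zm00001eb245320, psah1 (Zm00001eb295610) and Zm00001eb330460. In each of the 10, the replicate 2 column was the higher one, as in 88.5% of all site-free genes.

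Genes of the photosystems and of light harvesting formed the largest named group, with 12 site-free genes and 1 site-holding gene, beside the 80.3% of site-free genes overall. Light-harvesting proteins bind chlorophyll and pass absorbed energy to the photosystems, and ferredoxin takes up electrons from photosystem I. The site-free group had a median of 974 TPM and ranged from 638 to 1759 TPM. Its 3 most abundant genes were psa6, a photosystem I gene, with 1703 and 1815 TPM, CAB1, a chlorophyll a/b-binding protein gene, with 1688 and 1733 TPM, and psah1, encoding subunit H of photosystem I, with 1535 and 1608 TPM. The group also held the ferredoxin genes FDX1 and fdx2, psan1 (photosystem I subunit N), PSBQ1 (an oxygen-evolving enhancer protein), psbs1 (photosystem II subunit S), psb29 (the CP29 antenna protein), cab-m1, lhcb7 and Lhcb5-2. The 1 site-holding gene was fdx5, with 675.7 and 704.1 TPM. Its only site had a deposited pass score of 1, where sites carry a score of 1 or 2.

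Genes of carbon fixation gave 5 site-free and 5 site-holding genes, where 80.3% of all genes at this level were site-free. Their median deposited lengths were 1976 bases (site-free) and 2347 bases (site-holding). Over all site-free and site-holding genes of this level range the medians were 1043 and 1428 bases. In C4 plants such as maize, phosphoenolpyruvate carboxylase first fixes carbon in mesophyll cells, malate made by malate dehydrogenase moves to the bundle sheath, and NADP-malic enzyme releases CO2 there for Rubisco. Pyruvate, phosphate dikinase then renews the acceptor. The site-free genes were NADP-ME with 1181 and 1217 TPM, mdh6 (a malate dehydrogenase) with 750.6 and 765.4 TPM, shbp1 (sedoheptulose bisphosphatase of the Calvin cycle) with 752.5 and 757.9 TPM, rca1 (Rubisco activase) and pdrp1 (the regulatory protein of the dikinase). The site-holding genes were PEPC1 with 1467 and 1524 TPM, PPDK with 1292 and 1345 TPM, 2 genes named rbcS, for the small subunit of Rubisco, and GAPA, a chloroplast glyceraldehyde-3-phosphate dehydrogenase. Enzymes of one and the same pathway thus lay on both sides.

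The 8 named genes of cytosolic ribosomal proteins, all site-free where 80.3% of genes were, ranged from 464 to 650 TPM. They were led by rpl19 with 648.9 and 651.4 TPM, rpp3a, an acidic stalk protein gene, with 551.1 and 553.7 TPM, and rps27 with 547.7 and 554.5 TPM. The acidic proteins form the stalk of the large subunit, where elongation factors bind. These were short genes, with a median deposited length of 754.5 bases and a range from 616 to 1007 bases. The 2 named genes of plastid ribosomal proteins, hcf60 (S17) and prpl35-1 (L35), were site-free too, at 630 and 512 TPM.

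The 4 named translation factor genes were without a site, beside 80.3% of all genes at this level. Initiation factor 5A was encoded by eif5a, with 708.9 and 740.7 TPM, and tif5A, with 550.8 and 561.9 TPM, and GOS2, an initiation factor 1 gene, had 628.5 and 624.7 TPM. EF1A, for elongation factor 1-alpha, which brings transfer RNA to the ribosome, had 539.0 and 542.0 TPM. The only named histone gene in the site-free set was his2a1 (H2A), at 541 TPM.

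The 3 named aquaporin genes, for water channels, held no site, as did 80.3% of all genes at this level. TIP1-1, of the vacuole membrane, had 1378 and 1442 TPM, PIP2-1, of the plasma membrane, had 521.0 and 549.6 TPM, and PIP1-1 had 527.5 and 530.8 TPM. The tonoplast gene was the most abundant of the 3 by a margin well above the gap between its columns.

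Among genes placed by symbol, defence and cell surface gave 7 site-free genes and no site-holding one, beside the same 80.3%. Site-holding genes without a placing symbol, among them the abundant RAB15, were in no group and could not be counted here. After grp1 came MPI, a proteinase inhibitor gene, with 1362 and 1400 TPM, and GRP, a further glycine-rich protein gene, with 1011 and 1039 TPM. The others were the phospholipid transfer protein genes plt2 and plt1, the lipid transfer protein gene LTP3 and the beta-glucosidase gene glu2. Chaperone and redox genes gave 4 site-free genes and 1 site-holding gene. The site-free ones, after mtl1, were trm1 (thioredoxin m, a chloroplast redox protein) with 695.2 and 730.0 TPM, gst1 (a glutathione transferase) with 636.3 and 655.1 TPM, and hsp70-4. The site-holding one was the catalase gene CAT3, with 575.2 and 586.8 TPM.

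Related genes stood on opposite sides in several cases, which were chosen after their values were seen. On chromosome 6, FDX1 (chr6:6643297-6644174) and fdx2 (chr6:6676338-6677217) were site-free and flanked fdx5 (chr6:6647191-6647984), which held a site, all on the minus strand. FDX1 had 1389 and 1448 TPM, fdx2 had 779.2 and 805.0 TPM, and fdx5 had 675.7 and 704.1 TPM. Their deposited lengths were alike, at 878, 880 and 794 bases, and in each the length equalled the span.

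The cytosolic glyceraldehyde-3-phosphate dehydrogenase genes of glycolysis were split as well. GAPC2, without a site, had 763.0 and 782.9 TPM over 1718 bases, against 623.6 and 639.2 TPM over 1901 bases for GAPC1, with a site. The alpha-tubulin gene tua3, without a site, had 574.9 and 581.3 TPM, against 789.1 and 807.0 TPM for tua4, with 1 site. That site had a pass score of 1, so tua4 would be site-free with sites of score 2 alone. A second site-holding tubulin gene model, Zm00001eb055850, had 733.0 and 741.4 TPM and 4 sites. Of these, 2 were listed under LOC103643947 and 2 under LOC100037751, here called TUA2 and TUA1. A pair annotated as Natterin-4 on chromosome 2 was split in the same way, with 815.8 and 844.4 TPM for the site-free Zm00001eb087960 and 727.0 and 747.7 TPM for Zm00001eb087980. In the ferredoxins, GAPDH and Natterin-4 genes the site-free copies were the more abundant, and the site-free tua3 was less abundant than tua4. The level of Zm00001eb055850 is that of a model over TUA2 and TUA1, not of a single copy.

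**Figure D2:**
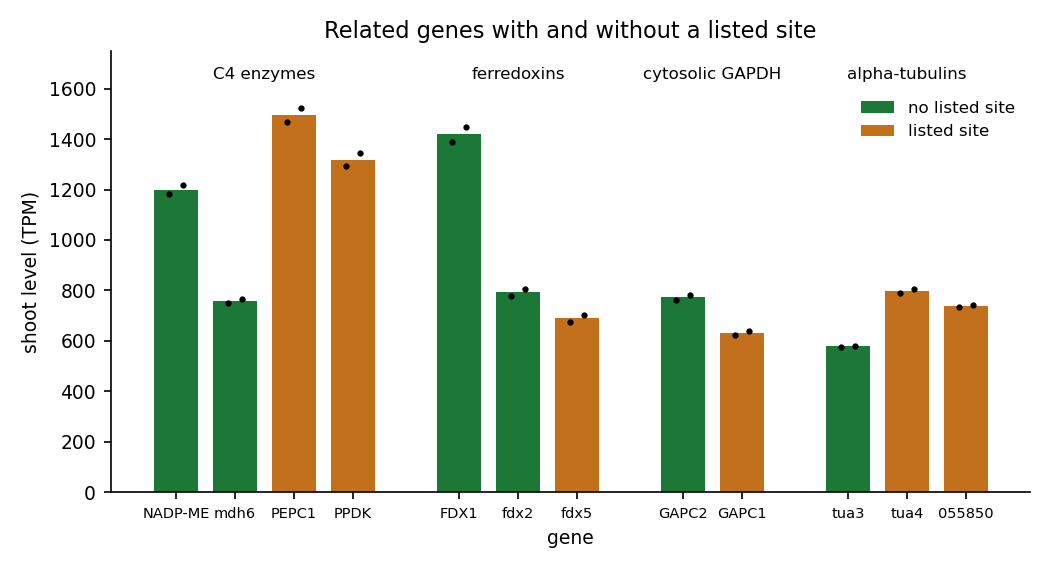
Shoot level (TPM) of genes of one pathway or family. Bars are means of the 2 columns and black points the 2 values; green bars are genes without a listed site and orange bars genes with one, and the label at the far right is the end of Zm00001eb055850. The site-free gene is the higher one for GAPC2 (772.9 TPM) over GAPC1 (631.4 TPM) and the lower one for tua3 (578.1 TPM) under tua4 (798.1 TPM).

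A 21-base window each is shown from the site-holding relatives and from PPDK, since site-free relatives or pathway partners of these genes had no listed position. The capitals mark the 3-base motif with the site in its middle, at base 11, in the direction of the transcript. Coordinates are those of the deposited table, in the B73 reference assembly Zm-B73-REFERENCE-NAM-5.0, and each of the sites shown was annotated in coding sequence.
fdx5 (chr6:6647682-6647702, minus strand): cccgtggcgGTGgcgccagca
GAPC1 (chr4:38912965-38912985, minus strand): ccgggatcgCTCtgaacgacc
tua4 (chr5:10000504-10000524, minus strand): tcgatggtgCTCtgaacgttg
TUA1 part of Zm00001eb055850 (chr1:277614303-277614323, plus strand): tcgatggtgCTCtgaacgtgg
Zm00001eb087980 (chr2:105444965-105444985, plus strand): acctgagcgCTCggatggtgg
PPDK (chr6:157085877-157085897, plus strand): ccagggcagCTCtggtggctg

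At these positions the deposited Ψ fraction was 10.5% in fdx5, 17.7% in GAPC1, 13.3% in tua4, 13.4% in the TUA1 part of Zm00001eb055850, 26.2% in Zm00001eb087980 and 15.7% in PPDK. The deposited values pool the replicates, so they carry no error. The depth, summed over libraries, was 2004 reads for fdx5, 2118 for GAPC1, 2583 for tua4 and 2654 for TUA1. The pass score was 1 at the positions shown for fdx5, tua4 and TUA1, and 2 at those for GAPC1, Zm00001eb087980 and PPDK. The windows of tua4 and TUA1 had the same motif and nearly the same flanks. The other sites of Zm00001eb055850, not shown, had GTC or GTG motifs and Ψ fractions of 24.6%, 20.8% and 19.1%. They had no listed counterpart in tua4, which held 1 site.

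For comparison, the 5 most abundant site-holding genes had levels of 2557 TPM (Zm00001eb043260), 2118 TPM (Zm00001eb407630), 2039 TPM (RAB15), 1757 TPM (rbcS, Zm00001eb197410) and 1496 TPM (PEPC1). The only site of Zm00001eb043260 had a pass score of 1, and the sites of the others had a score of 2. The 49 site-holding genes held 65 sites, of which 56 were in coding sequence, 8 in a 3′ UTR and 1 in a 5′ UTR, and 36 of the genes held 1 site each. The median Ψ fraction of these sites was 14.7%, from 4.69% to 74.1%. The deepest site of each gene had from 1535 to 7284 reads. Over the 342 site-holding genes of all levels, the deepest site had a median of 502 reads and as few as 6, so sites were also listed at depths far below those of the site-holding genes of this level range.

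The share of genes with a listed site was highest at the top of the ranking. It was 20.0% in the 200 most expressed genes (40 genes, 95% Wilson interval 15 to 26.1%), 14.5% in the next 200 and 5.50% in ranks 801 to 1000 (11 genes, 3.10 to 9.58%). From ranks 1001 to 2000 it stayed between 5.0% and 7.50% per bin. These intervals cover counting error only. The site-free genes were thus 160 of the 200 most expressed genes.

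Site-free genes had a lower median length than site-holding genes of the same level range. The deposited length, which equals the span from start to end in 45 of the 200 site-free genes and never exceeds it, had a median of 1043 bases in site-free genes (quartiles 816.5 and 1366, range 210 to 2965), against 1428 bases in site-holding genes (quartiles 988 and 2009, range 522 to 4406). The median span was 1590 bases in site-free genes and 2061 bases in site-holding genes, a difference of -471 bases. Lengths under 1000 bases occurred in 46.5% of site-free genes and 26.5% of site-holding genes, and lengths over 2000 bases in 6.0% of site-free genes and 26.5% of site-holding genes. The 2 ranges overlapped over most of their extent.

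**Figure D3:**
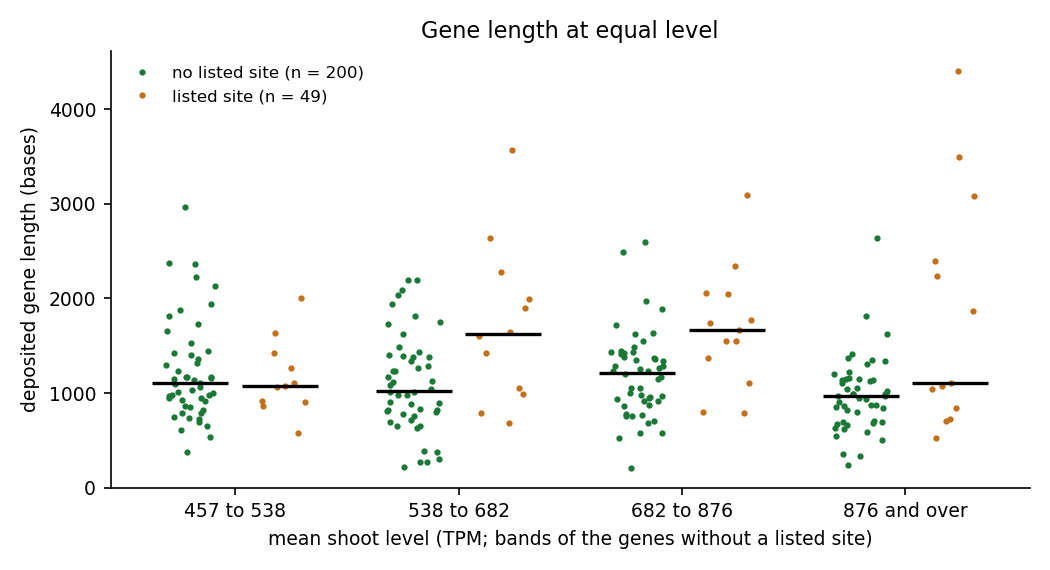
Deposited gene length (bases) in 4 bands of mean shoot level (TPM), set by the quartiles of the site-free genes. Each point is a gene, green without and orange with a listed site, and black lines are medians. The site-free medians are the lower ones in the 3 bands above 538 TPM and about equal in the lowest, at 1102 against 1073 bases.

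The difference was not seen at every level. Between 457 and 538 TPM the median length was 1102 bases in 50 site-free genes, against 1073 bases in 11 site-holding genes, and the median span was longer in site-free genes, at 2170 against 1874 bases. Between 538 and 682 TPM the median length was 1026 bases in site-free genes and 1622 bases in 12 site-holding genes, between 682 and 876 TPM it was 1214 against 1669 bases, and above 876 TPM it was 969.5 against 1105 bases. With 11 to 13 site-holding genes in a band, single genes weigh on these medians.

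Split by length, the 249 genes differed most in the longest of 4 equal length classes. A site was listed in 38.7% of the genes of 1431 to 4406 bases (24 of 62, interval 27.6 to 51.2%). In the shorter classes the share was 12.7% (210 to 835 bases), 16.1% (840 to 1094 bases) and 11.3% (1102 to 1428 bases), with intervals that overlapped each other. Per 100 kb of deposited length the 4 classes held 22.6, 21.7, 8.96 and 28.5 sites, from the shortest to the longest, so the density of sites did not follow length in one direction.

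**Figure D4:**
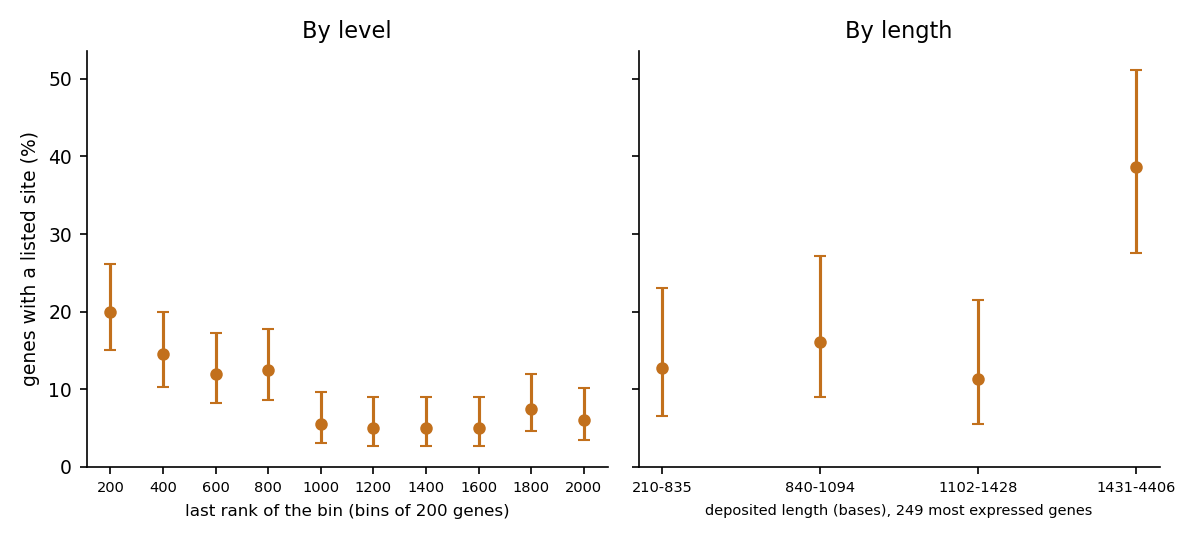
Percentage of genes with a listed site, with 95% Wilson intervals. Left, by rank of mean shoot level in bins of 200 genes, labelled by the last rank of each bin; right, by 4 classes of deposited length among the 249 most expressed genes. The share is 20.0% in the first bin and 5.50% in the fifth, and 38.7% in the longest class against 11.3 to 16.1% in the others.

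The site-free genes at the extremes of length had ordinary levels. The shortest deposited length was that of Zm00001eb198420 (210 bases), with 876.2 and 875.6 TPM, and the shortest span that of Zm00001eb368480 (319 bases), with 583.3 and 585.8 TPM. The longest deposited length was that of hsp70-4 (2965 bases), a heat shock protein gene, with 517.4 and 518.1 TPM. The longest span belonged to Zm00001eb229550, whose gene model runs over 212693 bases (chr5:69796193-70008885) with a length of 2131 bases, and which had 512.2 and 525.1 TPM. The next longest span was 11698 bases.

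Reads behind these values were recovered from TPM times length, which fell on steps of 0.01 read. The replicate 1 column then held 29641894 and the replicate 2 column 27024160 reads over all genes. A site-free gene had a median of 12959 reads per column (range 2213 to 62271), against 19546 reads for a site-holding gene (range 5158 to 101739). The read number was not whole in 192 of the 200 site-free genes in each column, and in 185 of them in both columns. It was not whole in 49 of the 49 site-holding genes in the replicate 1 column and 46 in the replicate 2 column. Of all genes of at least 1 TPM it was not whole in 77.1% in the replicate 1 column and 76.7% in the replicate 2 column. A read number that is not whole can arise where a read is divided between genes, which was not examined here. A single divided read would be enough, and genes of at least 1 TPM had a median of only 414 reads. How many reads were divided was not measured, so levels of close copies, such as those of the ferredoxin, tubulin and light-harvesting genes, are uncertain by an unknown amount.

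The 2 columns agreed closely. The log2 ratio of the replicate 2 column over the replicate 1 column (TPM + 1) had a median of 0.035 in the site-free genes, with a range from -0.047 to 0.106, and a median of 0.036 in the site-holding genes, with a range from -0.023 to 0.073. The replicate 2 column was higher in 177 of 200 site-free genes (88.5%), in 43 of 49 site-holding genes (87.8%) and in 43.2% of the 26967 genes of at least 1 TPM. The shift was therefore shared by highly expressed genes with and without a site. After centring on the median of the 249 genes, the median absolute log2 ratio was 0.020 in site-free genes and 0.014 in site-holding genes. Counting error alone gave a median standard error of 0.018 in site-free genes and 0.015 in site-holding genes. A standard error and a median absolute ratio are unlike measures, so their sizes are not to be compared directly. The centred ratio left the 95% range of counting error in 38 of 200 site-free genes (19%) and 9 of 49 site-holding genes (18.4%). It did so in 9.39% of the genes of at least 1 TPM, centred on the same value. Those genes had fewer reads (median standard error 0.10) and an uncentred median log2 ratio of -0.015. Their share is therefore not directly comparable with the other 2.

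**Figure D5:**
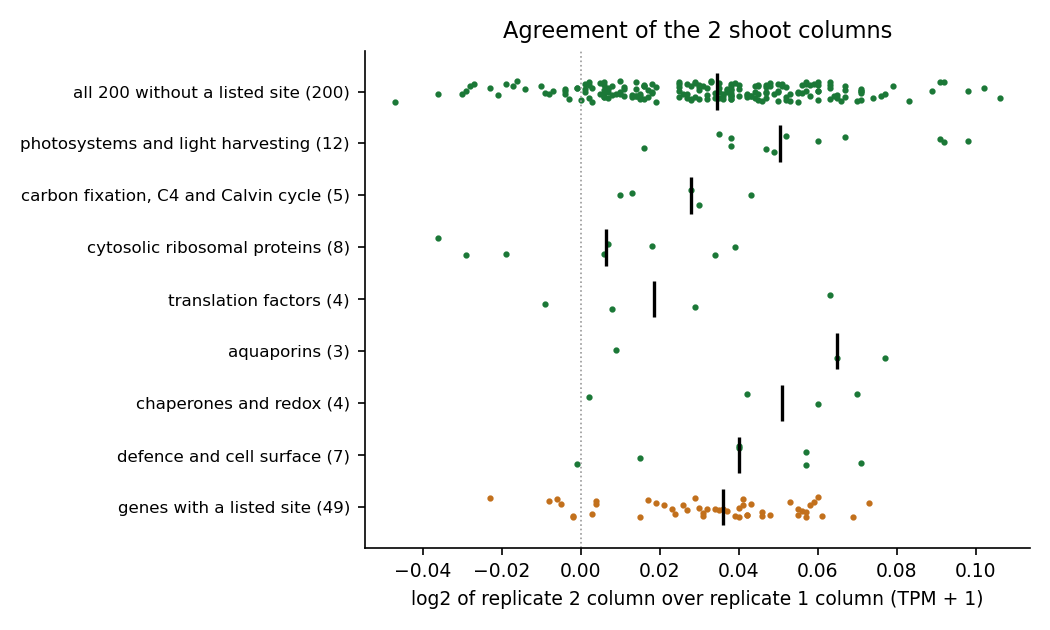
Log2 ratio of the replicate 2 column over the replicate 1 column (TPM + 1) for each gene, with medians as black lines. Green rows are the 200 genes without a listed site and their named groups of 3 or more, and the orange row the 49 genes with a listed site. All 12 photosystem genes lie above 0 (0.016 to 0.098), as do 88.5% of the 200 genes, and the ribosomal protein genes lie on both sides (-0.036 to 0.039).

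The largest gaps between the columns were small in absolute size. They were found in Zm00001eb336410, with 1199 and 1290 TPM (log2 ratio 0.106), Zm00001eb261260, with 679.1 and 728.8 TPM (0.102), PSBQ1, with 865.2 and 926.0 TPM (0.098), psa6 (0.092) and psan1, with 1019 and 1086 TPM (0.091). Of these 5 genes, 3 belong to the photosystems, whose 12 site-free genes were all higher in the replicate 2 column, with a median log2 ratio of 0.051. Of all 200 site-free genes, 88.5% were higher in that column. The 8 cytosolic ribosomal protein genes had a median of 0.006, and 3 of them, rpp2a-4, rpl35 and rpp2b, were lower in the replicate 2 column. The groups also differed in level, with medians of 974 TPM (photosystems) and 513 TPM (ribosomal proteins). The median absolute log2 ratio was 0.047 in the 100 highest site-free genes, 0.035 in the 200 highest and 0.026 in the 400 highest. Whether the ratio followed group or level was not tested. As both columns carry the label shoot, these values describe the spread between libraries of one group.

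The site-free genes were spread over all 10 chromosomes, and none lay on the scaffolds, which hold 844 of all genes. Chromosome 3 held 27 of them (13.5%, interval 9.45 to 18.9%), against 10.3% of all genes, and chromosome 7 held 26 (13.0%, interval 9.03 to 18.4%), against 7.72% of all genes. Chromosome 1, with 14.8% of all genes, held 22 (11%, interval 7.38 to 16.1%). Chromosome 7 was the only one whose interval left out the share of all genes in the direction of more genes, and it was singled out after its value was seen among 10 chromosomes. On the minus strand lay 109 and on the plus strand 91 of the site-free genes, against 25 and 24 of the site-holding genes.

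Few of the site-free genes were neighbours. Within 50 kb of each other lay 4 pairs, and no group of 3 or more. The closest were Zm00001eb415460 and Zm00001eb415470 on chromosome 10, 1577 bases apart on opposite strands, and his2a1 (Zm00001eb397500) and Zm00001eb397520 on chromosome 9, 6611 bases apart. The others were FDX1 with fdx2, 32163 bases apart, and Zm00001eb330460 with Zm00001eb330470 on chromosome 7, 35344 bases apart. Another gene model overlapped 28 of the 200, on the opposite strand in 27 cases, and the level of the overlapping gene was at most 4.32% of that of the site-free gene.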

How the data were processed

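BID-seq libraries were made from polyadenylated shoot RNA. The authors ran their published pipeline with Zm-B73-REFERENCE-NAM-5.0 as the genome, and deposited 2 tables. In the expression table, values are TPM per gene, normalized by the deposited gene length. In the site table, the deposited depth is a count of reads summed over libraries, the deposited Ψ level is a calibrated fraction, and the deposited pass score is 1 or 2 for each site, with no definition in the header. Replicates were pooled there by the authors.

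Genes were ranked by the mean of both TPM columns and joined to sites by chromosome, strand and position. RefSeq names were joined by position without strand (overlap of at least 0.5 of the joint extent). Log2 ratios used a pseudocount of 1. Read numbers were recovered as multiples of 0.01 read, and called whole within 0.003 read; the steps were tested on simulated data. Shares have 95% Wilson intervals. No test was run, since there was 1 group and genes are not replicates. The text names the 10 highest site-free genes, the 3 highest of each named group of 3 or more, the 5 largest column ratios, the extremes of length, the genes next to the limit, close neighbours and the 5 highest site-holding genes; exceptions are marked. The genes and lists were chosen with earlier results of these data known, and functional groups were read from the symbols of the 249 genes. Exon structure, mRNA sequence and promoters were not analysed here. Python with pandas, numpy, scipy and matplotlib was used.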

Additional observations from a re-analysis of the deposited data

How the results depend on the processing

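Each result had its own limit of change, namely 1 SD of the 2 columns for the median level, the counting interval for the share of genes with a site, and 1.5 times for the other results. Of 37 alternatives, 30 kept the value within that limit, 6 moved it and 1 reversed it. Some of the 30 could hardly do otherwise, so their number does not measure robustness. No compared gene lay on a scaffold, so leaving scaffolds out changed nothing. The deepest sites of the site-holding genes had at least 1535 reads, far above the limit of 50 reads tried. A smaller pseudocount has almost no effect at 457 TPM and above. Ranking by value times length, which favours long genes, kept 126 of the 200 site-free genes, while counting only sites of pass score 2 kept 182 and ranking by one column alone kept 199. The length difference and the share of genes with a site were not recomputed with sites of pass score 2 alone. The median level was 876 TPM with 100 genes and 457 TPM with 400 genes. Scaling the columns to the same median ratio gave a median absolute log2 ratio of 0.020 in place of 0.035. Site-free genes had a median span 296 bases longer than site-holding genes in the lowest of the 4 level bands, against a difference of -471 bases over all levels; the cause was not tested. The difference was -473 bases with one column left out, and -385 bases by deposited length, -405 bases by RefSeq span and -376 bases without the 2 longest genes of each set, which were added after the data were seen. Within 20 kb lay 2 neighbour pairs of site-free genes and within 200 kb 8. RefSeq exon length and motif counts were not run, nor the group counts with 400 genes, since symbols were read for 249 genes only. No paired analysis was possible because all libraries belong to one group and no result comes from a test. Depth sets no limit on the levels, but at unlisted positions depth was not analysed here.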
